A study of Mus musculus with 6 samples.

Results

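Retinoic acid is the form of vitamin A that switches genes, and 9 genes that make it, carry it or break it down were read in the hippocampus of mice on a control or a ketogenic diet. They were taken by name as Aldh1a1, Aldh1a2, Aldh1a3, Rbp4, Stra6, Crabp2, Cyp26b1, Rdh10 and Dhrs3, and all 9 were found among the 53715 genes of the count table. The study measured messenger RNA in 6 male C57BL/6J mice aged 2 to 3 months, of which 3 ate the control diet and 3 the ketogenic diet for 3 weeks. The labels name no transgene, mutation or drug in either group, and they do not give the composition of either diet. A ketogenic diet is rich in fat and poor in carbohydrate and raises blood ketone bodies. Libraries are named by diet and the replicate number in the labels.

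In the pathway, retinol travels in blood bound to RBP4 and enters cells through the receptor STRA6. RDH10 oxidises retinol to retinal, DHRS3 reduces retinal back to retinol, and the retinal dehydrogenases ALDH1A1, ALDH1A2 and ALDH1A3 turn retinal into retinoic acid. CRABP2 hands retinoic acid to its nuclear receptors, the RAR proteins, which bind DNA with RXR partners, and CYP26B1 hydroxylates and so inactivates it. In the mouse brain the meninges, the fibroblast-rich sheets around the tissue, are known as a source of retinoic acid and as a site of Aldh1a2 expression.

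Promoters are shown for the genes whose messenger RNA changed and that have a RefSeq entry, which are Aldh1a2, Rbp4 and Aldh1a1. Each runs 5′ to 3′ from 250 bases before a transcript start to 50 bases after it, and capitals mark a hexamer of the type bound by retinoic acid receptors (AGGTCA on either strand, or any of its common variants AGTTCA and also GGGTCA and also GGTTCA) or the letters TATAAA on the transcript's strand. Rbp4 has a pair of annotated starts, and of the pair of Aldh1a1 starts the downstream one is printed because it holds a hexamer. All are on GRCm38.p6, from RefSeq.
Aldh1a2, chr9:71215539-71215838, plus strand: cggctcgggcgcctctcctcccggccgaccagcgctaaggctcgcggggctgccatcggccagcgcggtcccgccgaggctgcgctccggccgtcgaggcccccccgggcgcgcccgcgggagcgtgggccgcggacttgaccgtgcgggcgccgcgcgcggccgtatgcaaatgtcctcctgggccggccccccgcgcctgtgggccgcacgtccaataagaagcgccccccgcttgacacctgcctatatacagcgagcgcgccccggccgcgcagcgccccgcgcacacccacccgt
Rbp4, upstream start, chr19:38125272-38125571, minus strand: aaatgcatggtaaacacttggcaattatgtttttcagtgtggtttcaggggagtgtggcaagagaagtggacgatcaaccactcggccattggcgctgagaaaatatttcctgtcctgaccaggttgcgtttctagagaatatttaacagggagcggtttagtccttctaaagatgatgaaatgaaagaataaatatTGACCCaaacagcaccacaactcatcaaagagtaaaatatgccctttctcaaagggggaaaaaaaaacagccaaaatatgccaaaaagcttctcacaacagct
Rbp4, downstream start, chr19:38124762-38125061, minus strand: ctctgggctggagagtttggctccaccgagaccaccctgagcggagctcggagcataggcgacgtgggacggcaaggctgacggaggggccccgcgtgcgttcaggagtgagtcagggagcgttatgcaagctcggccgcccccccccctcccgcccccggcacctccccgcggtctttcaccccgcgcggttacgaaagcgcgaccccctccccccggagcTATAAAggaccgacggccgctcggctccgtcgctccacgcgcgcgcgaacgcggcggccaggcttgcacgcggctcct
Aldh1a1, downstream start, chr19:20601718-20602017, plus strand: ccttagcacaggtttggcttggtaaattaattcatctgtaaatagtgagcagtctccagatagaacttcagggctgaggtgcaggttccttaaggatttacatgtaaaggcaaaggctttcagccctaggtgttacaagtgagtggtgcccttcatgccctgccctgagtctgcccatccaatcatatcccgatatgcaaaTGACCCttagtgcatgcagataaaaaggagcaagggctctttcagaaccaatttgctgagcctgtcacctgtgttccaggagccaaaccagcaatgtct

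In all, 6 of the 9 genes had entries in that table, with 13 promoters between them. Hexamers were found in 3 of these 13 (the upstream Rbp4 start, the downstream Aldh1a1 start and 1 Stra6 start), and 43.7% of all 32851 promoters in the table hold at least 1. No promoter of the 6 genes held a direct repeat of these hexamers with a spacer of 1, 2 or 5 bases, forms that RAR and RXR dimers are known to bind. Such repeats were in 0.222%, 0.268% and 0.0974% of all promoters. The letters TATAAA stood in the downstream Rbp4 promoter and in that of Cyp26b1, against 8.32% of all promoters. GC content was 78.0% in the Aldh1a2 promoter, 40.7% and 72.0% in the upstream and downstream Rbp4 promoters and 47.0% in the downstream Aldh1a1 promoter.

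Libraries held 16832240 to 18357792 gene counts, and 16478 genes, all 9 among them, had enough counts to test. Levels are in CPM, counts scaled for library size, and a log2 fold change is the ketogenic level over the control level, given ± its standard error. Each gene was tested by quasi-likelihood in edgeR, p-values were adjusted by Benjamini-Hochberg across all 16478, and a gene is said to have risen or fallen where the adjusted p is under 0.05. The extraction protocol in the labels speaks of retinas, whereas the tissue label says hippocampus. Only 3 of 15 retina markers passed the filter on low counts, and Crx was at 0 in all 6 libraries, whereas Camk2a, a gene of forebrain excitatory neurons, stood at 5074 ± 36.7 CPM in control libraries (SD, n = 3). The libraries also differed in content between the diets. The summed CPM of 16 choroid plexus epithelium markers was 832 to 7512 in the control and 61.9 to 114 in the ketogenic libraries. It was highest in control 1 and then control 2, so results are also given without these libraries. Control 3, at 832, was still above every ketogenic library, so leaving out control 1 and 2 does not remove this difference. In tissue RNA, fewer cells of a type, less RNA per cell and less of a tissue collected cannot be told apart.

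Of the 9 genes, Aldh1a2, Rbp4 and Crabp2 rose with the ketogenic diet, Aldh1a1 fell, and the other 5 did not pass the test. The rises were between 2.70-fold and 5.06-fold, and the fall was 1.70-fold. Among all tested genes 9.67% passed the test, 5.05% upward and 4.62% downward. In 5 of the 9 genes, the 4 named and Aldh1a3, no control library overlapped with a ketogenic one, against 27.6% of all tested genes. The median log2 fold change was 0.35 over the 9 genes and -0.01 over all tested genes. The 9 genes were chosen with earlier results of these data known. At their control levels alone Crabp2 and Aldh1a3 would not have met the filter on low counts. The counts above therefore describe the 9 genes and do not test them as a set.

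**Figure D1:**
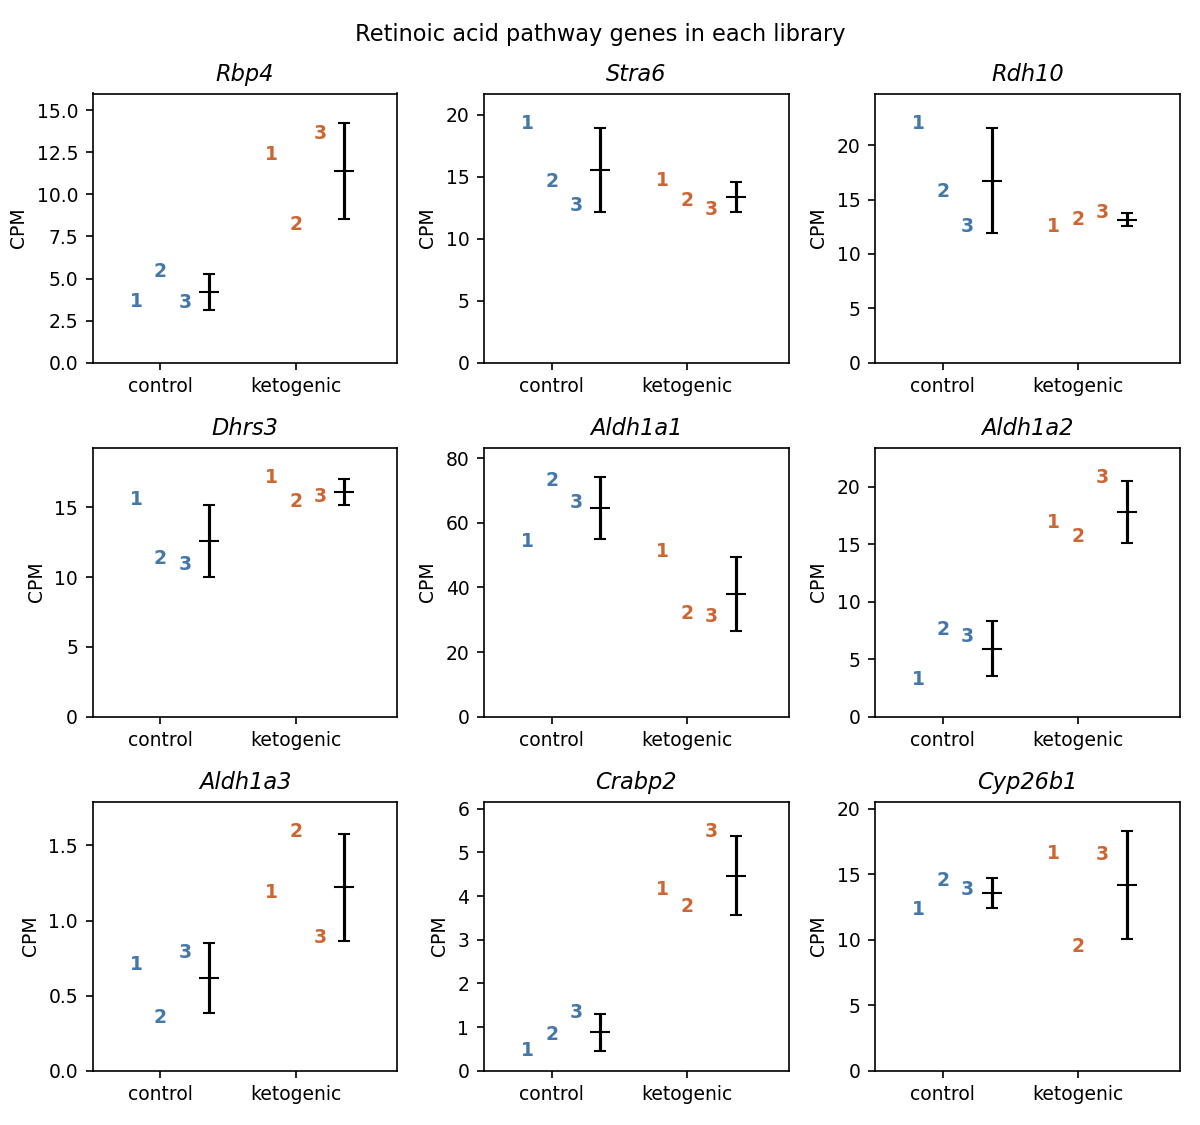
CPM of each of the 9 genes (y axis, from 0) in the 3 control and 3 ketogenic libraries (x axis). Each numeral is a library and the bars are mean ± SD (n = 3). The ketogenic libraries of Aldh1a2, Rbp4 and Crabp2 all lie above the control libraries, and those of Aldh1a1 all lie below.

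Transport into the tissue comes first in the pathway. Rbp4, which encodes the retinol carrier of blood (ENSMUSG00000024990, chromosome 19, 38116620 to 38125321, minus strand, coordinates as deposited), stood at 3.61, 5.44 and 3.57 CPM in control 1, 2 and 3 and at 12.3, 8.20 and 13.6 CPM in ketogenic 1, 2 and 3. Every ketogenic library was above every control library, with ketogenic 2 nearest to the controls. The mean rose from 4.21 ± 1.07 to 11.4 ± 2.83 CPM (SD, n = 3), a log2 fold change of 1.43 ± 0.23 (edgeR adjusted p = 0.00491). Without control 1 the log2 fold change was 1.33 (edgeR adjusted p = 0.0147), and it was 1.67 without control 1 and 2. The Rbp4 promoters are those printed above, of which the upstream one holds a hexamer.

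Stra6, the gene of the cell-surface retinol receptor (ENSMUSG00000032327, chromosome 9, 58063788 to 58153996, plus strand), had 19.3, 14.6 and 12.7 CPM in the control and 14.7, 13.1 and 12.3 CPM in the ketogenic libraries. The diets overlapped, and control 1 was the highest library. The log2 fold change was -0.22 ± 0.16 (edgeR adjusted p = 0.479). It was -0.03 without control 1, the library richest in choroid plexus markers, and 0.07 without control 1 and 2, and the part of choroid plexus RNA in the Stra6 values was not tested.

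Neither gene of the enzymes that interconvert retinol and retinal passed the test. Rdh10, the gene of the retinol dehydrogenase (ENSMUSG00000025921, chromosome 1, 16105774 to 16133734, plus strand), had 22.0, 15.7 and 12.5 CPM in the control and 12.6, 13.1 and 13.8 CPM in the ketogenic libraries. Control 1 was again the highest, and control 3 lay below all ketogenic libraries. The log2 fold change was -0.35 ± 0.18 (edgeR adjusted p = 0.302), and it was -0.10 without control 1 and 0.07 without control 1 and 2. Dhrs3, the gene of the opposing retinal reductase and in many cell types itself induced by retinoic acid (ENSMUSG00000066026, chromosome 4, 144892827 to 144928209, plus strand), had 15.6, 11.3 and 10.9 CPM in the control and 17.1, 15.4 and 15.7 CPM in the ketogenic libraries. Control 1 lay among the ketogenic libraries and the other controls below them. The log2 fold change was 0.35 ± 0.15 (edgeR adjusted p = 0.184), and the gene passed upward without control 1 at 0.53 (adjusted p = 0.0344).

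The step that makes retinoic acid is where genes of 1 family went in opposite directions. Aldh1a1, the gene of retinal dehydrogenase 1 (ENSMUSG00000053279, chromosome 19, 20492715 to 20643462, plus strand), had 54.1, 72.9 and 66.3 CPM in the control and 51.1, 31.8 and 30.9 CPM in the ketogenic libraries. The diets did not overlap, but ketogenic 1 lay just under control 1. The mean fell from 64.4 ± 9.56 to 37.9 ± 11.4 CPM (SD, n = 3), a log2 fold change of -0.76 ± 0.18 (edgeR adjusted p = 0.0264). This call was lost in 7 of 15 alternatives, among them those without control 2 (-0.67, adjusted p = 0.112), ketogenic 2 (-0.65, 0.130), ketogenic 3 (-0.64, 0.0883) or control 1 and 2 (-0.80, 0.135). Over all 15 the log2 fold change lay between -1.04 and -0.64.

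Aldh1a2, the gene of retinal dehydrogenase 2 (ENSMUSG00000013584, chromosome 9, 71215789 to 71296243, plus strand), had 3.19, 7.62 and 6.96 CPM in the control and 16.9, 15.7 and 20.8 CPM in the ketogenic libraries. The lowest ketogenic library was above the highest control, and control 1 was the lowest of all. The mean rose from 5.93 ± 2.39 to 17.8 ± 2.67 CPM (SD, n = 3), a log2 fold change of 1.59 ± 0.26 (edgeR adjusted p = 0.00504). Without control 1 the log2 fold change was 1.28 (edgeR adjusted p = 0.00246), the smallest of the 15 alternatives, and it was 1.35 without control 1 and 2. The Aldh1a2 promoter is the GC-rich one printed above, without a hexamer match.

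Aldh1a3, the gene of the third enzyme of the family (ENSMUSG00000015134, chromosome 7, 66390890 to 66427517, minus strand), was near the limit of detection, with 12, 6 and 13 counts in the control and 22, 28 and 15 counts in the ketogenic libraries. In CPM these were 0.710, 0.355 and 0.787 against 1.19, 1.59 and 0.884, so the diets did not overlap, although control 3 and ketogenic 3 lay close together. The log2 fold change was 0.98 ± 0.41 (edgeR adjusted p = 0.178). At these counts a change of this size did not pass the test.

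On the authors' deposited FPKM values, which are fragments scaled to gene length and library size, the 3 genes summed to 12.4, 18.1 and 16.6 in the control and 17.9, 13.6 and 15.6 in the ketogenic libraries. The means of these sums were 15.7 ± 2.91 and 15.7 ± 2.15 FPKM (SD, n = 3; exact permutation test, two-sided, p = 1.0), and the diets overlapped. With 3 libraries a diet this does not show that the sums are equal. The sums also depend on the gene lengths used, 4934 bases for Aldh1a1, 2264 for Aldh1a2 and 4617 for Aldh1a3. The longest coding transcript of Aldh1a1 in the GENCODE M21 annotation is 2358 bases, and sums at other lengths were not computed.

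Within that sum the share of Aldh1a2 was 11.3%, 18.5% and 18.4% in the control and 41.3%, 50.5% and 58.8% in the ketogenic libraries. All ketogenic shares were above all control shares, with means of 50.2% ± 8.76 and 16.1% ± 4.15 (SD, n = 3). The exact two-sided permutation test gave p = 0.1, the smallest that 3 against 3 libraries allow, and 0.233 after Benjamini-Hochberg adjustment over the 7 sums and ratios computed. On this scale Aldh1a1 was above Aldh1a2 in every control library, and in ketogenic 2 and 3 Aldh1a2 was the higher. The ratios of Aldh1a2 to Aldh1a1 FPKM were 1.08 and 1.47 there against 0.720 in ketogenic 1. These ratios and the shares depend on the gene lengths given above. In counts, not scaled to length, Aldh1a1 was above Aldh1a2 in every library, at 559 and 524 against 276 and 353 in ketogenic 2 and 3. Which of the pair had more messenger RNA there is therefore not settled. All 7 sums and ratios were chosen after the values were seen. Of the others, the share of Aldh1a3 (0.890% ± 0.419 and 1.72% ± 0.695), the summed FPKM of the 9 genes (33.0 ± 2.25 and 41.3 ± 5.42) and the ratio of the summed Aldh1a genes to Cyp26b1 (6.21 ± 0.671 and 6.23 ± 1.40) overlapped between control and ketogenic libraries.

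**Figure D2:**
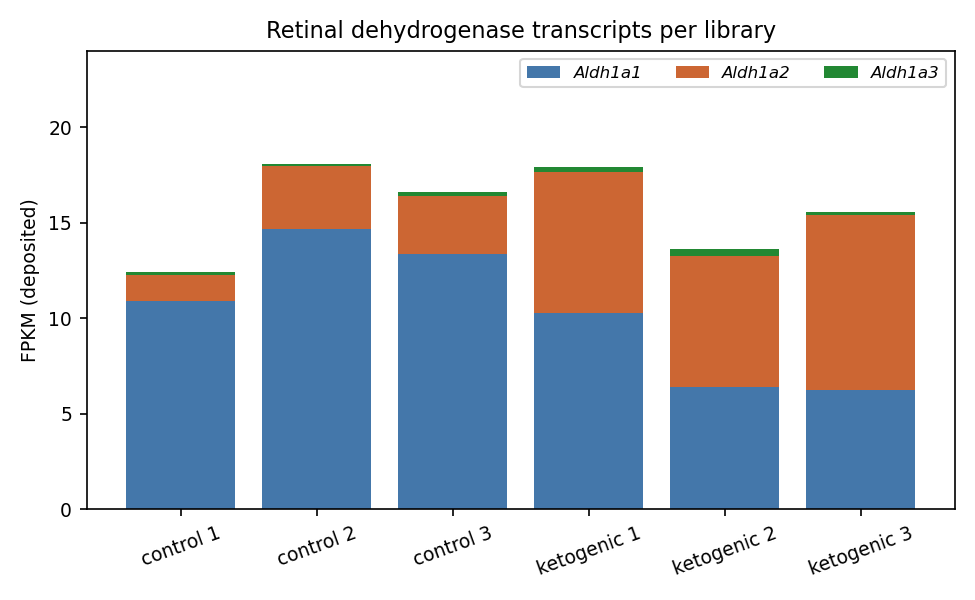
Deposited FPKM (y axis, from 0) of Aldh1a1, Aldh1a2 and Aldh1a3 stacked in each of the 6 libraries (x axis). Heights depend on the gene lengths used in FPKM. The whole bars overlap between the diets, at 12.4 to 18.1 FPKM in control and 13.6 to 17.9 FPKM in ketogenic libraries, while the Aldh1a2 segment is larger in every ketogenic library.

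Aldh1a7, a near copy of Aldh1a1, lies beside it on chromosome 19. The longest coding transcripts of the pair are 88.7% identical over 2034 aligned positions in GENCODE M21, so some reads could be assigned to either. Aldh1a7 had 1 to 6 counts per library against 524 to 1234 for Aldh1a1.

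Crabp2, the gene of the carrier that delivers retinoic acid to its receptors (ENSMUSG00000004885, chromosome 3, 87948666 to 87953376, plus strand), had the largest change of the 9. It stood at 0.473, 0.827 and 1.33 CPM in the control libraries, from 8, 14 and 22 counts, and at 4.15, 3.76 and 5.48 CPM in the ketogenic libraries, from 77, 66 and 93 counts. The lowest ketogenic library was well above the highest control. The mean rose from 0.877 ± 0.431 to 4.46 ± 0.905 CPM (SD, n = 3), a log2 fold change of 2.34 ± 0.34 (edgeR adjusted p = 0.00290). It was 1.74 without control 1 and 2 (adjusted p = 0.0580), where the call was lost, and 1.40 on log2(FPKM + 1) values, a scale that understates changes of low genes. Crabp2 and Aldh1a3 each reached 10 counts in 2 of the 3 control libraries and in all ketogenic ones, so at their control levels alone they would not have met the filter on low counts.

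Breakdown of retinoic acid is represented by Cyp26b1, the gene of the retinoic acid hydroxylase found in brain (ENSMUSG00000063415, chromosome 6, 84571414 to 84593908, minus strand). It had 12.3, 14.5 and 13.8 CPM in the control and 16.5, 9.45 and 16.5 CPM in the ketogenic libraries. The control libraries lay between the low ketogenic 2 and the high ketogenic 1 and 3. The log2 fold change was 0.07 ± 0.20 (edgeR adjusted p = 0.889), and it ranged from -0.06 to 0.29 over the alternatives.

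**Figure D3:**
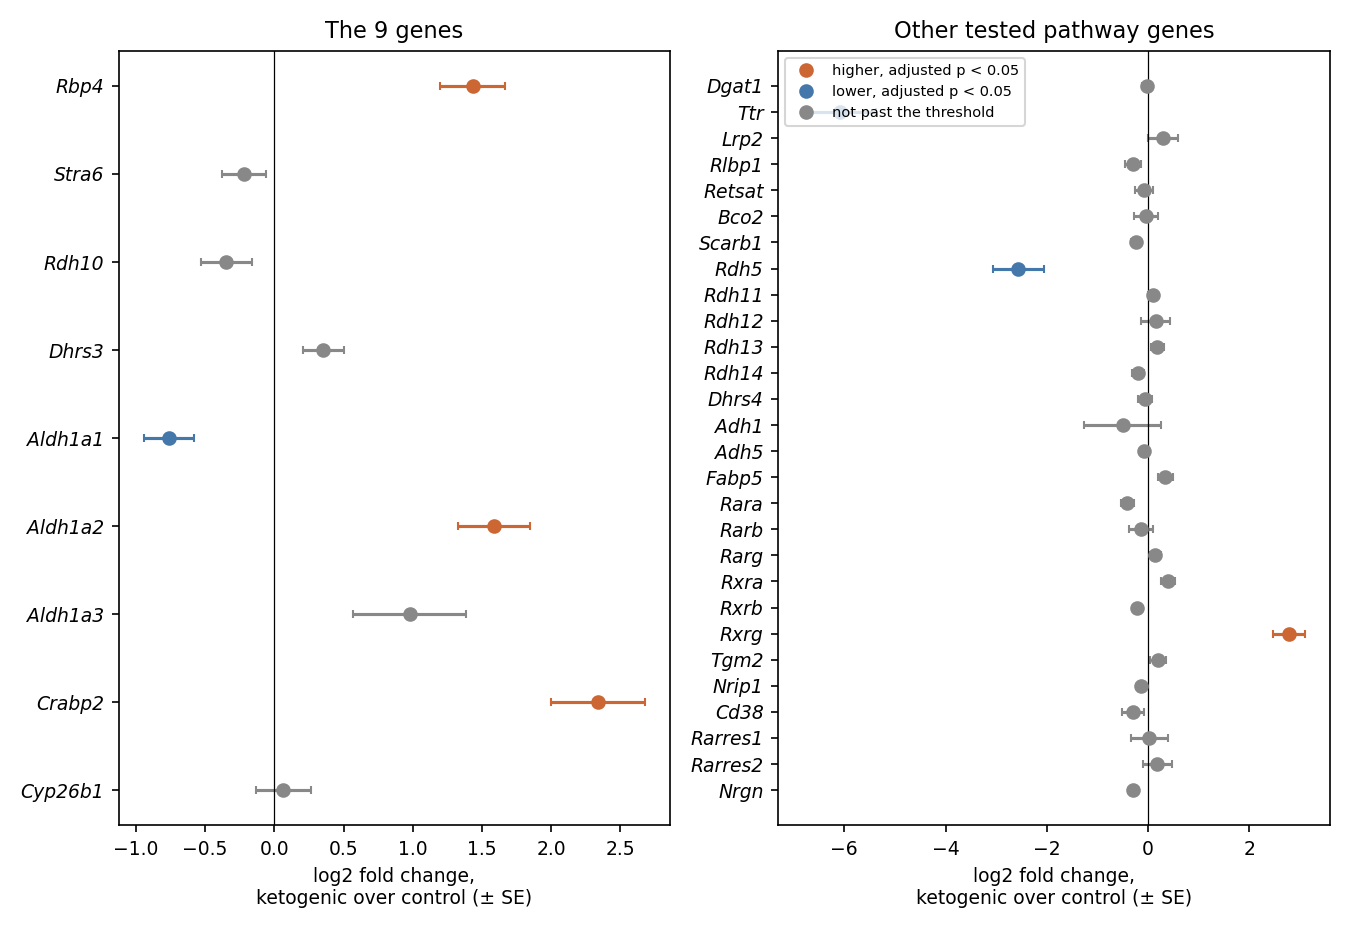
Log2 fold change of ketogenic over control (x axis, ± SE from edgeR) for the 9 genes (left) and for 28 of the 29 other tested genes of the pathway (right), coloured by call. Aldh1a2, Rbp4 and Crabp2 rose and Aldh1a1 fell at left, and Rxrg at 2.78, Rdh5 at -2.56 and Ttr at -6.09 stand apart at right.

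The order of the 9 genes per length differed between the diets. This order depends on the gene lengths used, from 1297 bases for Rbp4 to 5829 for Stra6, and orders at other lengths were not computed. On deposited FPKM (mean ± SD, n = 3), control libraries had Aldh1a1 on top at 13.0 ± 1.91, above Dhrs3 at 4.27 ± 0.875, with no overlap between the libraries of the pair. Dhrs3, Rdh10, Rbp4, Stra6, Aldh1a2 and Cyp26b1 followed between 4.27 and 2.51 FPKM, and each overlapped with the next. Crabp2 at 0.659 ± 0.324 and Aldh1a3 at 0.133 ± 0.0497 came last, each apart from its neighbour. In ketogenic libraries Rbp4 at 8.72 ± 2.18, Aldh1a2 at 7.81 ± 1.19 and Aldh1a1 at 7.63 ± 2.29 led and overlapped with each other. Crabp2 at 3.35 ± 0.687 was then in the middle of the order, overlapping with Rdh10 at 3.14 ± 0.153.

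The profiles of the 4 genes that changed were set beside all tested genes of at least 1 CPM, by the root mean square difference of their centred log2 CPM over the 6 libraries, a description without a test. Nearest to Aldh1a2 were Slc13a3 at 0.108, Fibin at 0.161, Eya2 at 0.243, Nnat at 0.248 and Slc6a13 at 0.269. Nearest to Crabp2 were Foxc2 at 0.189, Fmod at 0.214, Slc22a6 at 0.218, Gabrq at 0.292 and Nkx6-1 at 0.295. Slc6a13 and Slc22a6 encode transporters and Fmod a matrix proteoglycan, and these 3 and Slc13a3 are on the list of fibroblast markers used here.

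Nearest to Rbp4 were Aebp1 at 0.185, Slc38a4 at 0.212, Col1a2 at 0.213, Cyr61 at 0.222 and Mrgprf at 0.238, of which Col1a2, a collagen gene, is a listed fibroblast marker. Aldh1a1 had other neighbours, with Hist2h4 at 0.0457, Mag at 0.0916, Cnp at 0.110, Mog at 0.117 and Dgkh at 0.125. Mag, Cnp and Mog encode proteins of the myelin sheath. In all, 5 of the 15 nearest genes of the members that rose are on the fibroblast list, and 3 of the 5 nearest to Aldh1a1 are on the myelin list. These lists hold 23 and 8 genes, and 15128 genes were compared with each member. Nearest genes share the diet change of the member by construction, and the lists were chosen with earlier results of these data known. The counts are therefore a description only.

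**Figure D4:**
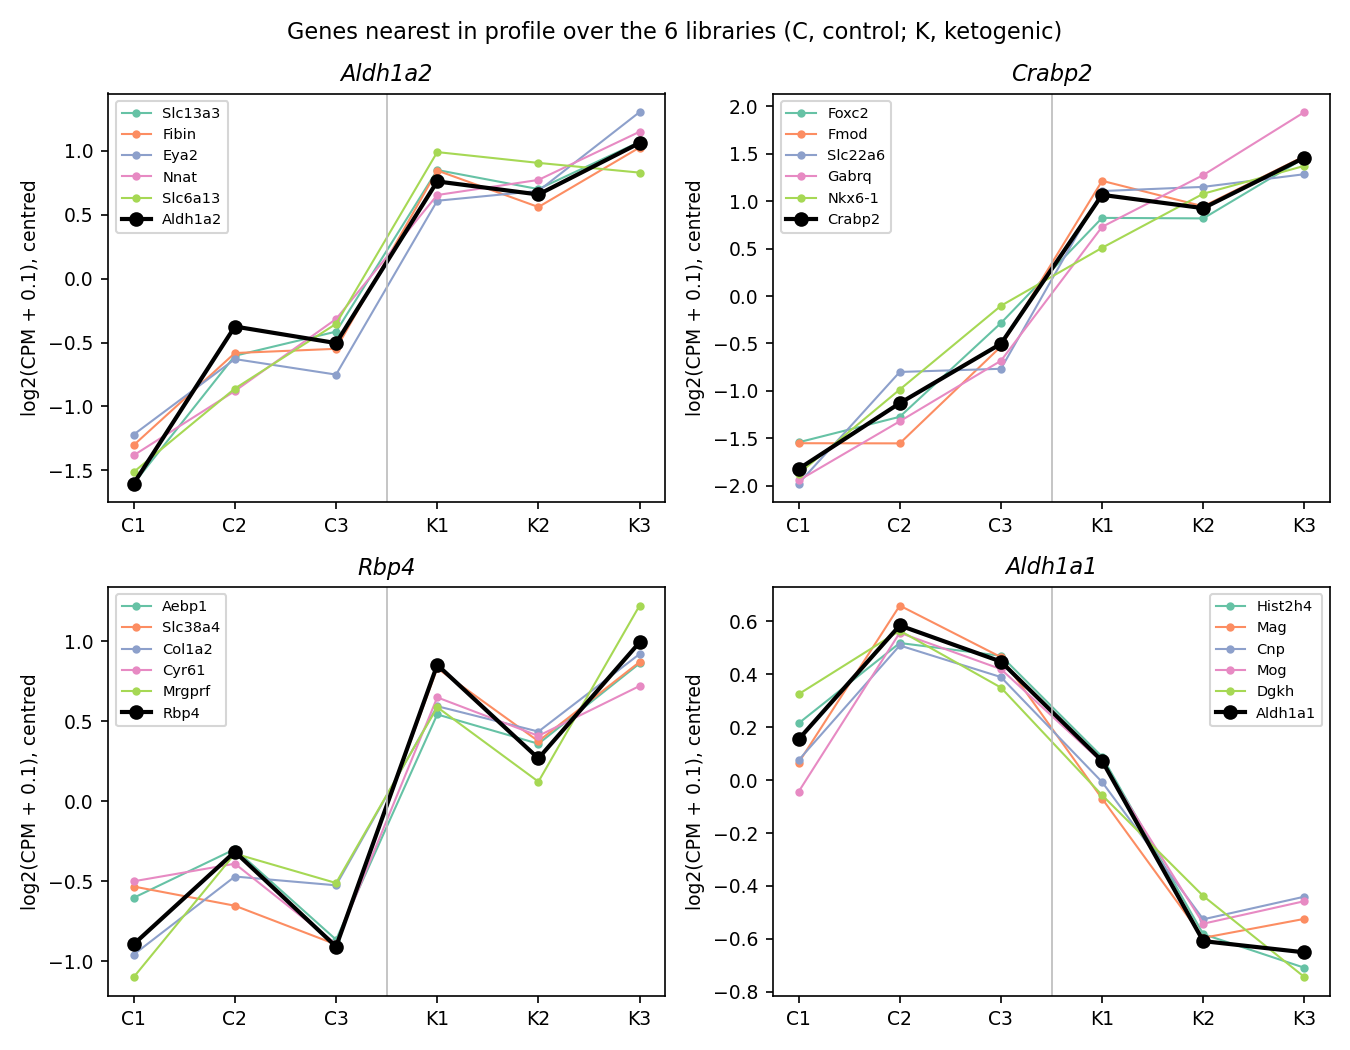
Centred log2(CPM + 0.1) (y axis) in the 6 libraries (x axis; C, control; K, ketogenic) of Aldh1a2, Crabp2, Rbp4 and Aldh1a1 in black, each with its 5 nearest genes. Lines only join the values of a gene. Aldh1a2 and Crabp2 were lowest in control 1, and Aldh1a1 was lowest in ketogenic 2 and 3.

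Markers of other cell types moved between the same libraries, on lists chosen with earlier results of these data known. Over all tested genes 5.05% rose and 4.62% fell. Of 23 meningeal and perivascular fibroblast markers, from which the 9 genes were left out, 13 rose and none fell, with a median log2 fold change of 1.096 against -0.01 over all tested genes. Their summed level was 292 to 338 CPM in the control and 523 to 661 CPM in the ketogenic libraries, and no marker was at 0 in all libraries. Dcn, the gene of decorin, rose from 16.9 ± 4.86 to 92.6 ± 33.5 CPM (edgeR adjusted p = 0.00134), whereas the markers most abundant in control libraries, Igfbp2 at -0.68 ± 0.31 (0.231) and Pdgfra at 0.28 ± 0.08 (0.0636), did not pass. The part of fibroblast RNA in the rises of Aldh1a2, Rbp4 and Crabp2 was not tested.

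Of 8 pericyte and smooth muscle markers, of which 7 were tested, 2 rose, with sums of 208 to 294 CPM in control and 366 to 395 CPM in ketogenic libraries. Of 8 endothelial and 8 astrocyte markers none passed in edgeR (2 and 1 at an unadjusted p under 0.05; 0 and 1 with DESeq2; 0 and 0 with limma-voom), and their sums overlapped, at 292 to 309 against 298 to 313 CPM and at 4985 to 5466 against 5118 to 5392 CPM. Of 8 myelin markers 7 fell, with sums of 5212 to 6601 CPM in control and 2771 to 3789 CPM in ketogenic libraries. Mbp, the gene of myelin basic protein, had 1732 CPM in ketogenic 1 and 1303 and 1460 CPM in ketogenic 2 and 3. The ketogenic library with the most Aldh1a1 thus also had the most Mbp. Ketogenic 2 and 3 were in the opposite order for Aldh1a1, at 31.8 and 30.9 CPM. The part of myelin RNA in the fall of Aldh1a1 was not tested.

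Neuronal lists moved as well, with 7 of 9 interneuron markers higher, 4 of 8 dentate granule cell markers lower, 6 of 8 pyramidal cell markers lower and 1 higher, and 4 of 8 subicular and cortical markers higher. Over all tested genes 5.05% were higher and 4.62% lower, and these lists too were chosen with earlier results known. The part of neuronal RNA in the values of the 9 genes was not tested.

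Beyond the 9 genes, 48 others of retinoid handling were listed, of which 29 had enough counts to test. Rxrg rose, Ttr and Rdh5 fell, and the other 26 did not pass, a share near that of all tested genes. Control and ketogenic libraries were fully apart in 8 of the 29, which is the background share of 27.6%, and the median log2 fold change was -0.07.

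Among the 6 receptor genes, all tested, 1 rose in edgeR (4 at an unadjusted p under 0.05, 2 passing with DESeq2, 1 with limma-voom). Control and ketogenic libraries were fully apart in 4 of the 6, against 27.6% of all tested genes. Rxrg, the gene of retinoid X receptor gamma, had 1.12, 0.886 and 1.09 CPM in the control and 4.69, 6.72 and 10.1 CPM in the ketogenic libraries. The diets were far apart, and the ketogenic libraries spread over a wider range than the control ones. Its log2 fold change was 2.78 ± 0.32 (edgeR adjusted p = 0.00135), past the threshold in all 15 alternatives. The more abundant Rxrb and Rxra stood at -0.22 ± 0.08 (adjusted p = 0.102) and 0.40 ± 0.14 (0.110), Rara at -0.41 ± 0.13 (0.0864), Rarg at 0.15 ± 0.12 (0.510) and Rarb, itself a classical target of retinoic acid, at -0.15 ± 0.24 (0.781).

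Of 14 genes of retinol handling and storage 8 were tested, and Ttr fell and none rose. Ttr encodes transthyretin, which holds RBP4 in blood and is abundant in choroid plexus epithelium, and it had 6442, 3373 and 704 CPM in the control and 58.7, 28.5 and 67.2 CPM in the ketogenic libraries. Control libraries were all higher and differed strongly among themselves. Its log2 fold change of -6.09 ± 0.72 (edgeR adjusted p = 0.00147) had the direction opposite to that of Rbp4, whose protein it binds. It was -5.31 without control 1 (adjusted p = 0.00135) and -3.77 without control 1 and 2 (0.0019). Scarb1, a lipoprotein receptor that takes up carotenoids, stood at -0.23 ± 0.10 (0.202) and Rlbp1, a retinal-binding protein gene, at -0.30 ± 0.16 (0.304).

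Of 17 other dehydrogenase genes 8 were tested, and Rdh5 fell and none rose. Rdh5 had 20.8, 10.9 and 3.81 CPM in the control and 1.83, 1.82 and 2.36 CPM in the ketogenic ones. Among the controls its order was that of Ttr. The log2 fold change was -2.56 ± 0.50 (edgeR adjusted p = 0.0115), and -1.87 without control 1 (0.0184). The call was lost in 4 of 15 alternatives, at -0.93 without control 1 and 2 (0.242), -2.50 without ketogenic 2 (0.0684), -2.26 with limma-voom (0.0775) and -1.42 on log2(FPKM + 1) values (0.0723). All 16 choroid plexus markers fell in edgeR, and 4 with limma-voom, and the part of choroid plexus RNA in the values of Ttr, which is one of them, and of Rdh5 was not tested. The abundant Adh5 and Rdh14 stood at -0.07 ± 0.08 (0.643) and -0.19 ± 0.11 (0.365).

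Of 11 genes known to respond to retinoic acid 8 were tested, and in edgeR none passed (1 at an unadjusted p under 0.05, 1 with DESeq2, 0 with limma-voom). The most abundant, Nrgn, which encodes the postsynaptic protein neurogranin, stood at -0.29 ± 0.09 (adjusted p = 0.0663), and Nrip1, a nuclear receptor corepressor gene, at -0.13 ± 0.08 (0.375). Nrgn passed with DESeq2 (adjusted p = 0.0111). Tgm2, the transglutaminase gene that retinoic acid induces in many cells, stood at 0.20 ± 0.17 (0.534). Of 4 further carrier and hydroxylase genes only Fabp5, a fatty acid carrier that also binds retinoic acid, was tested, at 0.35 ± 0.15 (0.200).

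**Figure D5:**
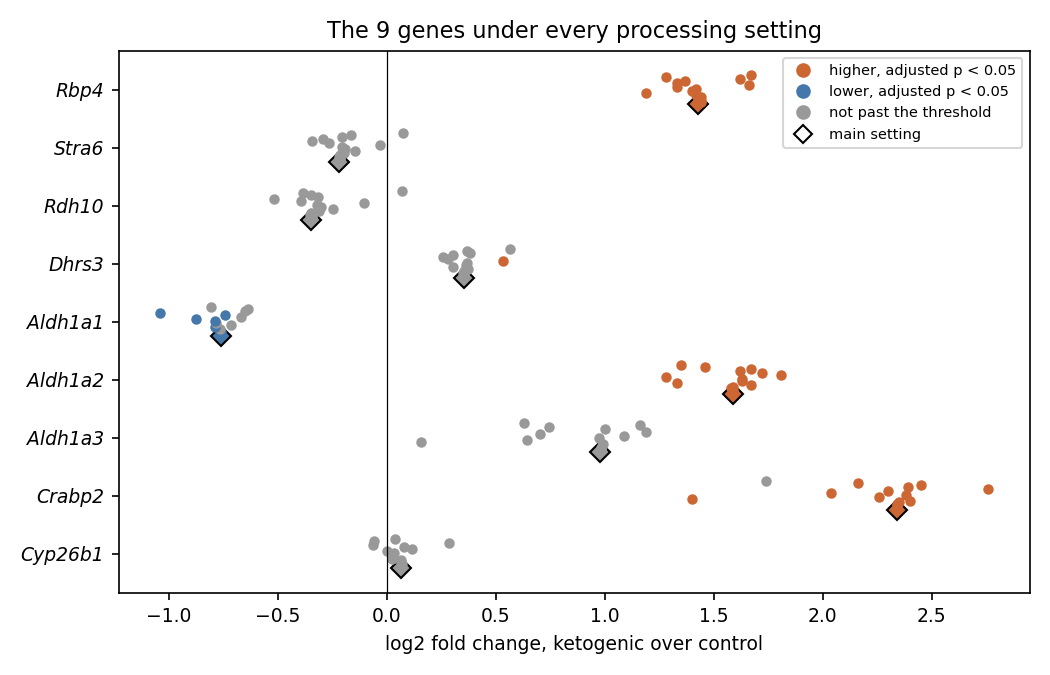
Log2 fold change of ketogenic over control (x axis) of the 9 genes (y axis) under the main setting (diamonds) and 15 alternatives (dots; 14 for Aldh1a3), coloured by call. Aldh1a2 and Rbp4 passed under all 15, Crabp2 under 14 and Aldh1a1 under 8.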

How the data were processed

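Hippocampal messenger RNA of 6 mice was sequenced, per the labels, from TruSeq libraries with an input of 1 µg total RNA. What the authors deposited is a table of raw counts by Ensembl identifier and one of FPKM. CASAVA, featureCounts 1.5.0-p3, DESeq2 1.10.1 and mm9 are named, per the submitters' processing notes. The sources used here do not give the aligner, the strandedness or the FPKM software. GENCODE M21, an annotation of GRCm38, shares 53620 gene identifiers with the tables, and start and end coincide for 97.1% of these and for 7 of the 9 genes, with Aldh1a1 and Rbp4 differing at their ends, so coordinates were taken to be on GRCm38. Overlapping genes (5, at 3 of the 9 genes) share 0 exonic bases with them in that annotation.

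The test used edgeR 4.0.16 under R 4.3.3. filterByExpr left 16478 of 53715 genes, TMM set the scaling, and the diets were compared by the quasi-likelihood F statistic with no covariate. Standard errors are absolute log2 fold changes divided by the square root of F. Totals of 16832240 to 18357792 counts gave a median standard error of 0.13. Each diet has 3 mice per the labels, and counts of same-diet libraries were not duplicates, their chi-square per degree of freedom being 6.13 to 18.3. The steps were tested on simulated data, where the share of false calls was above the nominal rate of the threshold. Many changed genes were missed there, at the larger simulated fold as well as the smaller. Calls near the threshold are thus less certain than their adjusted p, and a gene that did not pass may still have changed. Alternatives were other scalings and filters, DESeq2 1.42.0, limma 3.58.1 (voom, log2(FPKM + 1), log2(FPKM + 0.1)), a replicate block and left-out libraries.

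The 9 genes and all lists were chosen with earlier results of these data known. Named are all 9, Aldh1a7, every pathway gene that passed with mostly the 2 most abundant per list, the 5 nearest profiles of each of the 9 that passed, and, in part, abundant markers. Dcn, Rara, Rarb, Rarg, Rlbp1, Tgm2, Cyp26a1, Crabp1 and the sums and ratios of the 9 genes were added after values were seen, as were TATAAA and the variant hexamers. The identity of the Aldh1a proteins, planned, was not computed. Some listed genes enter the counts but are not reported here singly.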

Additional observations from a re-analysis of the deposited data

How the results depend on the processing

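Over 15 alternatives the count of the 9 genes called, 4 in the reported fit, was 2 without control 1 and control 2 and between 3 and 5 when single libraries were left out. In the fit without both controls, control 3 stands alone and takes its spread from the ketogenic libraries. Aldh1a2 and Rbp4 passed in all 15, over log2 fold changes of 1.28 to 1.81 and 1.19 to 1.67. Crabp2 passed in 14 and Aldh1a1 in 8, with calls of Aldh1a1 also lost with DESeq2 (adjusted p = 0.0501) and by limma with a pseudocount of 1 (0.0576) or 0.1 (0.0547) on FPKM. Small changes turned sign for Cyp26b1 without control 1 (-0.000322), ketogenic 1 (-0.0644) and ketogenic 3 (-0.06), reaching 0.285 without ketogenic 2, and without control 1 and 2 for Stra6 (0.0728) and Rdh10 (0.0716), where the cause was not tested.

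Over all genes 1593 passed, against 2462 without a filter, 1060 on log2(FPKM + 1) values, 289 without control 1 and 2 and 538 to 1877 when single libraries were left out, the lower end being 538 (ketogenic 2 left out), 677 (control 2) and 885 (ketogenic 3). Of the other pathway genes 3 passed, against 8 without a filter (which added Rpe65, Fabp5, Cyp26a1, Rxra and Nrgn), 5 with DESeq2 (which added Rxra and Nrgn), 2 with limma-voom, on log2(FPKM + 1) values and without control 1 and 2, and 2 to 6 when single libraries were left out. The labels do not say that the replicate numbers mark a litter, cage or day, so the numbers were not taken as pairs. Deviations of same-numbered libraries from their diet means correlated at -0.0237, 0.0609 and 0.0289 over genes, and those of differently numbered ones at -0.118 to 0.0678. Deviations sum to 0 within a diet, so these correlations cannot show that pairing is absent. With a replicate block 1504 genes passed, of which 1351 were among the 1593, and the same count of the 9 genes, 4, was called. At under 30 counts per library, Aldh1a3 had a standard error of 0.41, which limits what could be detected.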

Other observations

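The opposing enzymes Rdh10, which makes retinal, and Dhrs3, which reduces it, were set against each other after their values were seen. The ratio of Rdh10 to Dhrs3 on deposited FPKM was 0.995, 0.975 and 0.809 in control 1, 2 and 3 and 0.516, 0.600 and 0.617 in ketogenic 1, 2 and 3. Every ketogenic library was below every control library, although neither gene alone passed the test over all genes. The means were 0.926 ± 0.102 and 0.577 ± 0.0542 (SD, n = 3), and the exact two-sided permutation test gave p = 0.1, the smallest that 3 against 3 libraries allow, and 0.233 adjusted over the 7 sums and ratios computed. Leaving out single libraries kept the difference between -0.408 and -0.315. It was not computed without control 1 and 2 together, where only control 3 would remain, the control nearest to the ketogenic libraries at 0.809. In that setting the log2 fold change of Rdh10 alone was 0.07.

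Cyp26a1, the gene of a retinoic acid hydroxylase that retinoic acid strongly induces in many tissues, had too few counts for the filter, with 2, 4 and 8 in the control and 7, 21 and 35 in the ketogenic libraries. The diets overlapped, since ketogenic 1 lay below control 3. Without a filter its log2 fold change was 2.09 (edgeR adjusted p = 0.00311), in a fit of 30524 genes. Adjusted p-values of that fit were far smaller than those of the filtered one at the same fold change (1.45e-09 against 0.0264 for Aldh1a1), so they are not comparable, and the cause was not tested. Cyp26a1 had an adjusted p of 0.0594 with DESeq2. In the edgeR fits with single libraries left out that kept it, the adjusted p was 0.0235 to 0.24, past the threshold only without ketogenic 1. Crabp1, a carrier gene of the same list and also under the filter, went the other way. It had 7, 17 and 14 counts in the control and 5, 6 and 6 in the ketogenic libraries. The diets did not overlap in CPM, and with DESeq2 the log2 fold change of Crabp1 was -1.23 (adjusted p = 0.404).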
